A study of Gallus gallus with 20 samples.

Results

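HD11 is a chicken macrophage line transformed by an avian retrovirus, and these arrays measured its RNA after stimulation with endotoxin of Salmonella Typhimurium. The endotoxin was a butanol extract of lipopolysaccharide that, by the paper's account, also held protein. The comparison described here is endotoxin-stimulated against vehicle-treated cells at 2 hours post stimulation (hps), 5 of the 20 arrays in the series. Its members were chosen by the labels for dose and time, as the 3 arrays of cells given 1 μg/ml endotoxin and the 2 arrays of cells given 0 μg/ml that were harvested at 2 hps. The other 15 arrays hold the same pair of treatments at 1, 4 and 8 hps. Each array held the pooled RNA of several flasks of this 1 cell line, and vehicle was buffered saline. Replications were run on different days by the paper's account of RNA isolation, so that p-values measure the spread between cultures of a single line. Replications 1 and 2 had both treatments at each time, while replication 3 had endotoxin-stimulated cells and no vehicle-treated cells.

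Lipopolysaccharide is recognised by Toll-like receptor 4 on macrophages. The receptor signals through adaptor proteins and kinases to NF-kB and AP-1 transcription factors and MAP kinases. NF-kB is held in the cytoplasm by IkB proteins and, once released, switches on chemokines and cytokines together with genes that shut the signal down again, among them the gene of IkB-alpha itself.

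Levels are log2 values after robust multi-array averaging (RMA), each value being the summary of 1 probe set, a group of short probes for 1 transcript. A difference is the log2 level with endotoxin less that with vehicle, and its standard error (SE) comes from a limma model of all 20 arrays that holds a term for replication. Because replication 3 had no vehicle-treated array, this difference is not the same as the difference of the 2 group means. It can be larger, as for LOC395551 (difference 2.40, means 6.65 with vehicle and 8.81 with endotoxin). It can also be smaller, as for the brighter PIK3R5 probe set (difference 0.82, means 9.04 and 9.92). A probe set was called at a q value under 0.05, q being the p-value adjusted over all 38439 probe sets tested. Where values of single arrays are listed, the vehicle-treated arrays come in the order of replications 1 and 2 and the endotoxin-stimulated arrays in the order 1, 2 and 3.

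At 2 hps, 31 probe sets were higher (0.0806% of those tested) and 2 were lower (0.0052%) in endotoxin-stimulated cells. The genes that rose encode chemokines and interleukin-1 beta, inhibitors of NF-kB, surface and secreted molecules, signalling proteins, 2 lipid enzymes and 4 other proteins. Of the 31 higher probe sets, 24 carried 1 gene name and stood for 22 genes, and the other 7 had no name. The differences of these 7 ranged from 0.49 to 0.88. Of the 2 lower probe sets, 1 had a name. The median rise was 0.88, or 1.83-fold, and the 13 probe sets that rose by 1 or more were all named. In all 33 called probe sets (0.0859% of those tested) the 3 endotoxin-stimulated arrays lay on one side of both vehicle-treated arrays, as they did, in either direction, in 10.8% (higher) and 9.2% (lower) of all probe sets. The smallest gap between the groups among the 33 was 0.16, for FER1L3, and the largest 1.47, for MRGPRH.

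**Figure D1:**
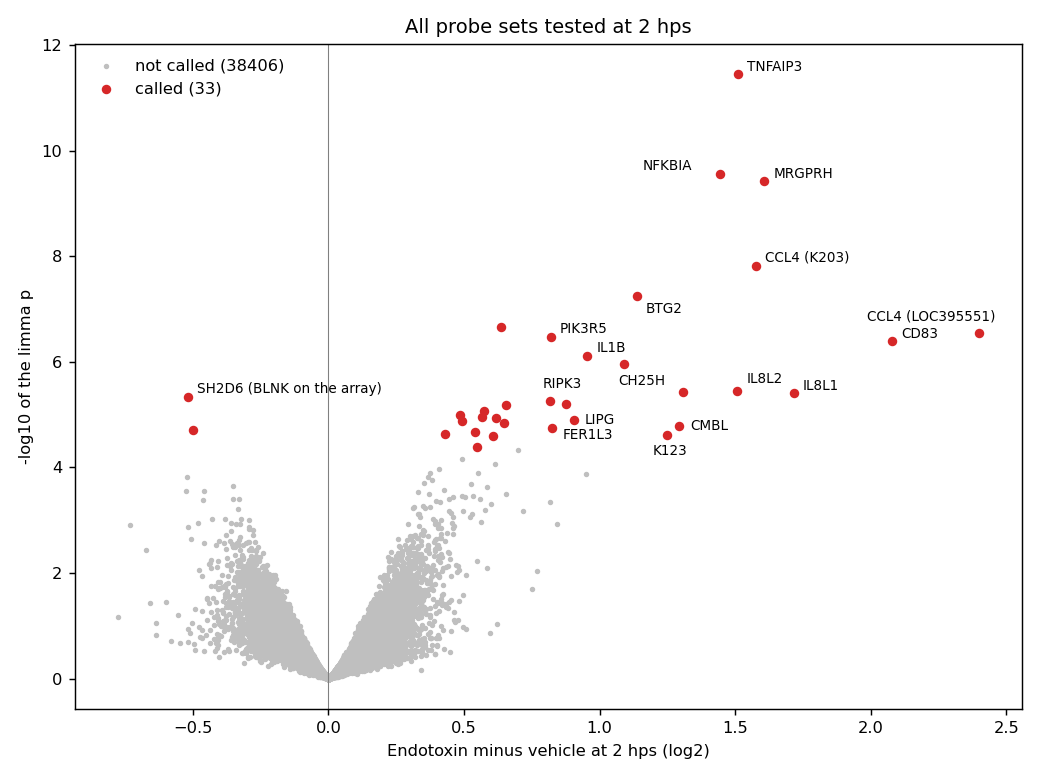
Difference at 2 hps (endotoxin minus vehicle, log2, x axis) against the −log10 of the limma p-value (y axis) for the 38439 probe sets tested; red points are the 33 called, and gene names are given for those farthest from the bulk. LOC395551 has the largest difference (2.40), TNFAIP3 the lowest p-value, and only 2 of the red points lie left of 0.

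Outside the called probe sets the 2 hps arrays held few low p-values. At an unadjusted p under 0.05, 908 probe sets were higher (2.36%) and 755 lower (1.96%). These 1663, the 33 called ones included, compare with 1922 that would be met by chance alone. The first probe set past the threshold was that of BIK, a pro-apoptotic BCL2 family member, with a difference of 0.70 (SE 0.12, q = 0.0539), and the last inside was that of PROK2 (q = 0.0469). Ordered by mean level over all arrays, the called probe sets all lay in the upper 5 of 10 equal bins, and 20 of the 31 higher ones were in the brightest 2.

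The number of calls moved with each array. Without 1 of the endotoxin-stimulated arrays of replications 1, 2 and 3, 16, 16 and 20 probe sets were higher, and without the vehicle-treated array of replication 1 or 2, 5 and 9 were. Without the replication term 10 were higher and 1 was lower. In bulk RNA a change in the share of cells that express a gene and a change in its RNA per cell cannot be told apart. On the first principal component of all arrays, the endotoxin-stimulated array of replication 3 at 2 hps lay at 33.6, the other 4 arrays of this time between −3.04 and 8.07, and its difference between the 3' and 5' actin probe sets, a sign of RNA or cDNA quality, was 0.11, against −0.02 to 0.08 in the others. Leaving out this array and its 1 hps counterpart (32.1 on the same component) left 17 higher and 0 lower. This array was the lowest of the 3 endotoxin-stimulated arrays in 23 of the 31 higher probe sets, against 30.9% of all probe sets.

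The labelled cell type was checked against macrophage genes. SPI1, the transcription factor PU.1, had a vehicle mean of 12.5, LYZ (lysozyme) 12.3, CSF1R, the receptor of macrophage colony-stimulating factor, 10.7 and PTPRC (CD45) 10.9. All 4 lay above at least 94.9% of probe sets. The scavenger and mannose receptors of tissue macrophages were lower, with MARCO at 5.48 and MRC1 at 6.03. Vehicle means of the 25 macrophage markers ran from 4.38 (VSIG4) to 13.3 (CEBPB). The median level of 25 macrophage markers in single arrays was 8.44 and 9.03 with vehicle and 8.34, 8.79 and 9.02 with endotoxin. Medians over vehicle means were 4.23 for 16 T cell markers, 4.47 for 9 B cell markers, 5.23 for 9 erythroid markers, 4.71 for 19 fibroblast markers and 4.89 for 7 thrombocyte markers, against 5.28 over all probe sets. Each of these lists spanned a wide range. The T cell markers ran from 2.78 (TRAT1) to 10.4 (CD28), with CD3E at 3.77 and CD3D at 6.72, the B cell markers from 3.39 (JCHAIN) to 6.22 (PAX5), the erythroid markers from 3.82 (RHAG) to 8.98 (TAL1), the fibroblast markers from 2.99 (LUM) to 8.90 (COL1A1) and the thrombocyte markers from 3.79 (GP9) to 12.8 (F13A1). No gene of the 6 marker lists was called at 2 hps by limma, and at an unadjusted p under 0.05 they held 2 T cell markers (TRAT1 and CD8A, both higher) and 2 fibroblast markers (TAGLN higher, LOX lower). RMA values carry no detection calls, so a low level does not show absence.

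Chemokines are the secreted ligands that draw leukocytes to a site, and LOC395551, the largest rise of the comparison, is one of them. Of 16 chemokine genes measured, 5 rose and none fell, against 0.161% of the 13693 named genes that rose by the same measure of 1 probe set a gene. The same share applies to the counts of genes called higher in the other lists. The median over the list was 0.11, against −0.0018 over all probe sets. Of the 11 not called, CCL19, which guides lymphocytes to lymphoid tissue, differed by 0.05 and XCL1 by −0.13, the lowest value of the list.

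LOC395551, which the array annotation names CCL4 and which is a relative of the macrophage inflammatory protein MIP-1 beta, had levels of 6.87 and 6.44 with vehicle and of 9.48, 8.63 and 8.33 with endotoxin. Every stimulated array was above both controls by at least 1.46. The difference was 2.40 (SE 0.28), a 5.28-fold rise (limma, q = 0.0016). The adjacent gene in the RefSeq order of protein-coding genes, CCL4 itself (also known as K203), stood at 6.64 and 6.13 with vehicle and at 8.18, 7.67 and 7.82 with endotoxin. Again the groups were well apart, and the 3 stimulated arrays were close to each other. Its rise was 1.58 (SE 0.14, 2.98-fold, q = 0.00014). A second, dimmer probe set named CCL4 was not called, with levels of 6.36 and 6.14 against 6.71, 6.47 and 6.40.

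The 2 chicken genes that the array calls IL8 are ligands that attract heterophils and monocytes, and they too are adjacent in that order. IL8L1 (K60) was measured at 7.91 and 7.49 with vehicle and at 9.89, 8.97 and 8.61 with endotoxin. IL8L2 (CXCLi2) was brighter in every array, at 9.29 and 8.50 with vehicle and 10.8, 10.0 and 9.73 with endotoxin. In both genes replication 1 was the highest array of its treatment, and the gap between the treatments was wider than the spread of the controls for IL8L1 but not for IL8L2. The rises were 1.72 for IL8L1 (SE 0.24, 3.29-fold, q = 0.0108) and 1.51 for IL8L2 (SE 0.21, 2.84-fold, q = 0.0108). Genes this alike can share probe signal, and that was not tested. The fifth riser of the list, K123, went from 6.06 and 5.48 to 7.58, 6.55 and 6.48. Only the stimulated array of replication 1 exceeded both controls by more than 1. Over the control of their own replication, the arrays of replications 1 and 2 were higher by 1.52 and 1.08. The rise was 1.25 (SE 0.21, 2.38-fold, q = 0.0303).

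Among 26 interleukin, interferon and growth factor genes, IL1B, the fever-inducing cytokine made by activated macrophages, was the only one called. Its levels were 9.11 and 9.14 with vehicle and 10.3, 9.77 and 9.98 with endotoxin. The controls were nearly equal and all stimulated arrays were higher, with a rise of 0.96 (SE 0.12, 1.94-fold, q = 0.0029). CSF3, the granulocyte growth factor, differed by 0.53 (SE 0.13) and was not called (q = 0.371). IL6, at 3.56 and 3.54 with vehicle and 3.36, 3.34 and 3.40 with endotoxin, lay near the bottom of the array's range and was not called either (−0.24, q = 0.9997). Of 27 members of the tumor necrosis factor and receptor families 0 were called. At an unadjusted p under 0.05 the list had 2 lower members and 0 higher, the lowest p being that of the death receptor FAS (−0.21, q = 0.9997).

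**Figure D2:**
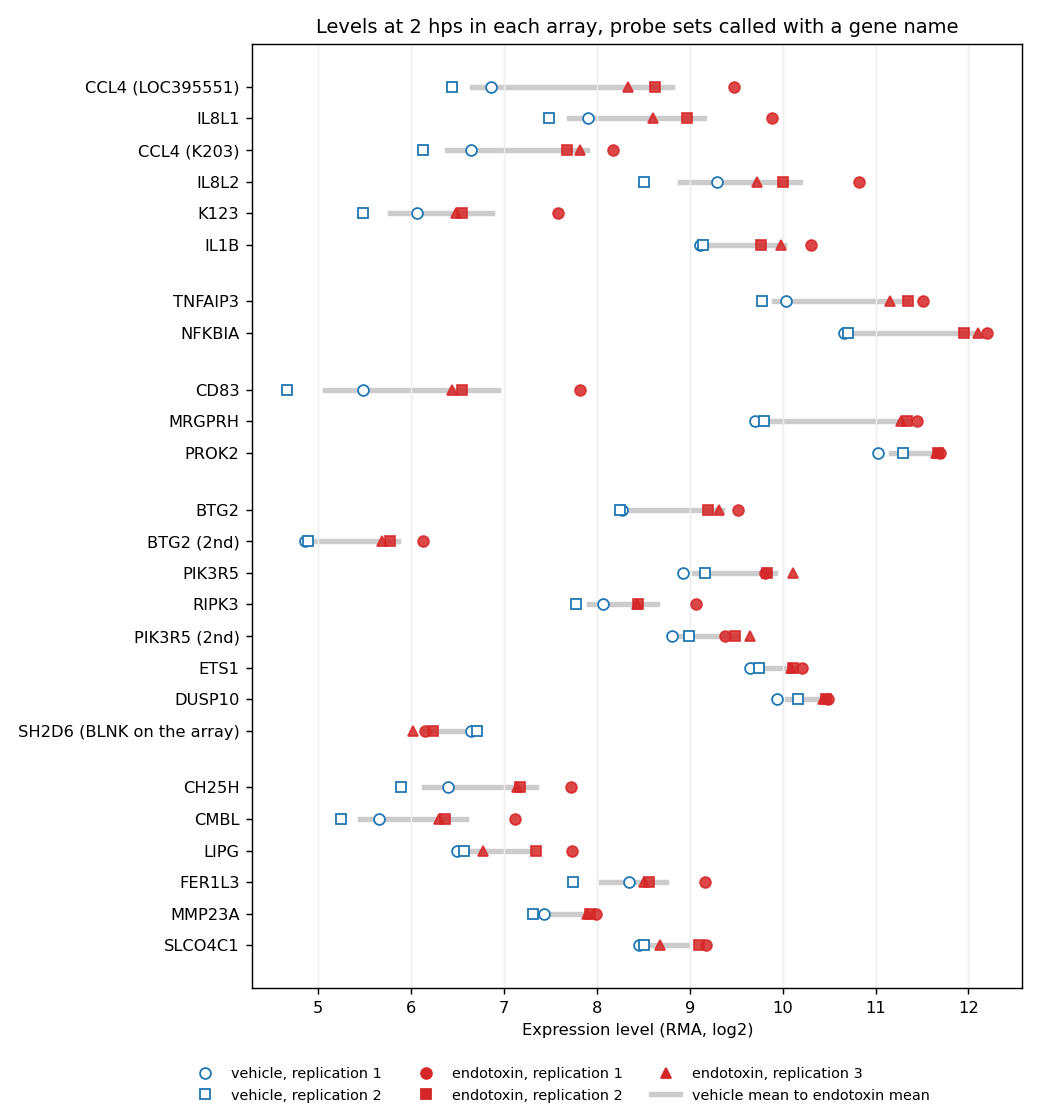
RMA level (log2, x axis) of each named probe set called at 2 hps in each of the 5 arrays, grouped by role; open blue symbols are vehicle-treated arrays, filled red symbols endotoxin-stimulated arrays, the symbol's shape gives the replication, and grey bars join the group means. In each line the 2 colours do not overlap, and SH2D6 is the only one with red to the left.

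Inhibitors of NF-kB had the 2 lowest p-values of the comparison. TNFAIP3 encodes A20, a ubiquitin-editing enzyme that switches off signalling to NF-kB, and its levels were 10.0 and 9.78 with vehicle and 11.5, 11.3 and 11.2 with endotoxin. NFKBIA encodes IkB-alpha, and its levels were 10.7 and 10.7 with vehicle and 12.2, 12.0 and 12.1 with endotoxin. All 3 stimulated arrays exceeded the controls by more than 1 in both genes. The rise of TNFAIP3 was 1.51 (SE 0.08, 2.85-fold, q = 1.4e-07) and that of NFKBIA 1.44 (SE 0.10, 2.72-fold, q = 4.8e-06). They were the 2 called of 28 NF-kB genes, with 6 above and 1 below 0 at an unadjusted p under 0.05 and a list median of 0.06.

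Other members of that list had differences above 0 that were not called. NFKBIZ, an atypical IkB that acts in the nucleus, was at 8.61 and 8.74 with vehicle and 9.42, 9.07 and 9.17 with endotoxin (0.58, SE 0.12, q = 0.19). TNIP2, a partner of A20, differed by 0.52 (SE 0.13, q = 0.404). The subunit gene NFKB1 differed by 0.25 (q = 0.9997) and the subunit gene REL by 0.16 (q = 0.9997), and the REL groups overlapped. In contrast MALT1, a protease that activates NF-kB in lymphocytes, had the lowest value of the list, −0.24.

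The receptors and adaptors that lie between endotoxin and NF-kB held no called gene. Of 14 Toll-like and NOD-like receptors 0 were called, and at an unadjusted p under 0.05 the list had 2 members lower and 0 higher. TLR4, the lipopolysaccharide receptor, was at 7.37 and 7.11 with vehicle and 7.31, 7.08 and 6.89 with endotoxin, so that the groups overlapped (−0.08, SE 0.09, q = 0.9997). TLR2, a receptor of bacterial lipoproteins, was at 8.13 and 7.65 against 7.82, 7.04 and 7.00, a difference of −0.48 (SE 0.12, q = 0.459) with overlapping groups. CD180, a TLR4 relative, differed by −0.40 (q = 0.9997) and TLR15, a receptor found in birds and reptiles, by 0.29 (q = 0.9997). Of 10 adaptors and kinases of these receptors and of 9 interleukin-1 receptor genes 0 were called. At an unadjusted p under 0.05 the first list had 1 member, higher, and the second 0. IRAK2 had the lowest p (0.34, SE 0.09, q = 0.682). Of 12 TRAF family genes 0 were called, with 1 above and 1 below 0 at an unadjusted p under 0.05. TRAF3, a ubiquitin ligase that restrains the non-canonical NF-kB pathway, was at 7.30 and 7.43 with vehicle and 7.64, 8.20 and 7.89 with endotoxin, without overlap, but missed the threshold (0.60, SE 0.14, q = 0.283).

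On the cell surface, CD83, an activation marker of antigen-presenting cells, had the second largest rise. Its levels were 5.48 and 4.67 with vehicle and 7.82, 6.55 and 6.44 with endotoxin. The controls were 0.82 apart and replication 1 was the highest of both treatments, yet the groups stayed apart by 0.96. The rise was 2.08 (SE 0.25, 4.23-fold, q = 0.0017). CD83 was the 1 gene called among 26 of costimulation and antigen presentation, and the list median was −0.04. The class I gene BF1 differed by −0.22 (q = 0.9997) and CD274, the PD-1 ligand, by 0.27 (q = 0.9997).

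MRGPRH, a G-protein coupled receptor of the Mas-related family, was at 9.70 and 9.80 with vehicle and 11.4, 11.3 and 11.3 with endotoxin. The stimulated arrays agree within 0.17 of each other, and the gap of 1.47 was the widest of the called probe sets. The rise was 1.61 (SE 0.11, 3.05-fold, q = 4.8e-06). PROK2, a secreted ligand of such receptors, was bright in all arrays, at 11.0 and 11.3 with vehicle and 11.7, 11.7 and 11.6 with endotoxin, and its rise of 0.55 (SE 0.10, 1.46-fold, q = 0.0469) was the weakest call. A dimmer PROK2 probe set differed by 0.51 and was not called (q = 0.246). These were the 2 called of 42 genes of G-protein coupled receptors and their ligands. The chemokine receptor CXCR4 was at 10.9 and 11.0 against 10.7, 10.8 and 10.8 and was not called (−0.20, SE 0.07, q = 0.9997).

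The signalling and transcription genes that rose act at several levels. BTG2, an antiproliferative protein that helps to shorten mRNA tails, was called by 2 of its 3 probe sets. The brighter was at 8.27 and 8.25 with vehicle and 9.52, 9.20 and 9.31 with endotoxin, and the other at 4.86 and 4.89 and at 6.12, 5.77 and 5.69. In both, the controls were nearly equal and the stimulated arrays at least 0.79 above them. The rises were 1.14 (SE 0.12, 2.20-fold, q = 0.00044) and 1.09 (SE 0.14, 2.13-fold, q = 0.0039). The third BTG2 probe set was at 5.92 and 5.99 with vehicle and 5.72, 5.91 and 5.85 with endotoxin. It differed by −0.12 and was not called (q = 0.9997), with all stimulated arrays below both controls by at least 0.01. Its mean over all arrays, 5.80, was above the 5.64 of the dimmer called probe set. BTG2 was the 1 called of 20 immediate early and AP-1 genes, whose median was 0.09. JUN, a subunit of AP-1, was at 9.80 and 9.51 against 10.2, 9.81 and 9.87 (0.39, SE 0.11, q = 0.763), FOS differed by 0.08 and EGR1 by 0.26, and none of the 3 was called.

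PIK3R5, the regulatory subunit of the PI3-kinase that G-protein coupled receptors activate in leukocytes, was called by both its probe sets. The brighter was at 8.92 and 9.16 with vehicle and at 9.81, 9.83 and 10.1 with endotoxin. Here replication 3 was the highest stimulated array, unlike in most of the rises. The differences of the 2 probe sets were 0.82 (SE 0.10, 1.76-fold, q = 0.0016) and 0.57 (SE 0.09, 1.49-fold, q = 0.017). PIK3AP1, an adaptor that recruits PI3-kinase, differed by 0.37 (SE 0.07) and was not called (q = 0.139).

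RIPK3, the kinase of necroptosis in mammals, was at 8.07 and 7.77 with vehicle and at 9.07, 8.45 and 8.43 with endotoxin. The groups did not overlap, and the rise was 0.82 (SE 0.12, 1.76-fold, q = 0.0133). Its other probe sets differed by 0.95 (q = 0.13) and 0.82 (q = 0.273), of the same size with wider errors. DUSP10, a phosphatase of the MAP kinases JNK and p38, rose by 0.43 (SE 0.07, 1.35-fold, q = 0.0301), from 9.93 and 10.2 to 10.5, 10.5 and 10.4, and its dimmer probe set was not called (0.14). It was the 1 called of 15 dual-specificity phosphatases. DUSP16 differed by as much (0.44) with a wider error (SE 0.13, q = 0.805). Of 35 genes of the MAP kinase cascade itself 0 were called, and an unadjusted p under 0.05 was met by 2 of them, both lower.

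ETS1, a transcription factor, was at 9.65 and 9.75 with vehicle and 10.2, 10.1 and 10.1 with endotoxin, a small rise with narrow spread in both groups (0.49, SE 0.08, 1.40-fold, q = 0.0197). This probe set is the brightest of 6 that carry the ETS1 accession. The other 5 were not called. The annotation names 4 of them TNIP1, so that the name is not settled here either. The remaining 1 has the same annotated name as the called probe set and differed by 0.13.

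Enzymes of lipid metabolism gave 2 of the 22 genes. CH25H makes 25-hydroxycholesterol, an oxysterol released by activated macrophages, and was at 6.39 and 5.89 with vehicle and 7.72, 7.17 and 7.14 with endotoxin. LIPG, a lipase that acts on lipoprotein phospholipids, was at 6.49 and 6.56 with vehicle and 7.73, 7.35 and 6.77 with endotoxin. CH25H was raised about evenly in replications 1 and 2, by 1.33 and 1.28, whereas the LIPG array of replication 3 was only 0.20 above the higher control. The rises were 1.31 for CH25H (SE 0.19, 2.48-fold, q = 0.0108) and 0.91 for LIPG (SE 0.14, 1.87-fold, q = 0.0212). The other 32 of 34 sterol and lipid enzymes were not called. INSIG1, a brake on sterol synthesis, had the lowest p of these (−0.27, SE 0.09, q = 0.9957).

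The other 4 named risers act in unrelated ways. CMBL, a hydrolase, went from 5.65 and 5.25 to 7.12, 6.36 and 6.30, a rise of 1.29 (SE 0.21, 2.45-fold, q = 0.0245). FER1L3 (myoferlin), a protein of membrane fusion and repair, was at 8.34 and 7.74 and then at 9.17, 8.57 and 8.50. The controls of FER1L3 were further apart than the groups, and its rise of 0.82 (SE 0.13, 1.77-fold, q = 0.0258) was nearly the same in replications 1 (0.83) and 2 (0.82). MMP23A, a matrix metalloproteinase, rose by 0.62 (SE 0.10, 1.54-fold, q = 0.0202), from 7.43 and 7.31 to 7.99, 7.93 and 7.89. It was the 1 called of 25 metalloproteinases and inhibitors, of which 4 lay above and 0 below 0 at an unadjusted p under 0.05. The dimmer MMP23A probe sets differed by 0.04 and 0.30, those of FER1L3 by 0.39 and 0.05 and that of SLCO4C1 by 0.17, and none of these was called. Among the metalloproteinases MMP27 differed by 0.42 (SE 0.14, q = 0.952). SLCO4C1, a carrier of organic anions, rose by 0.61 (SE 0.10, 1.52-fold, q = 0.0303), from 8.46 and 8.51 to 9.17, 9.10 and 8.68, and was the 1 called of 286 solute carrier genes. Over all named genes 22 of 13693 (0.161%) rose by the same measure.

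The single named fall was of a probe set that the annotation calls BLNK, the adaptor that links the kinase SYK to downstream signalling in B cells, and whose accession now belongs to SH2D6, a related adaptor, so that the name is not settled. Its levels were 6.65 and 6.71 with vehicle and 6.15, 6.24 and 6.02 with endotoxin. The controls differed by 0.06 and all stimulated arrays were at least 0.41 below them. The probe set fell by 0.52 on the log2 scale (SE 0.07, q = 0.0117). It was the 1 lower gene called (0.0073% of all named genes), with PIK3R5 the 1 called higher, among 41 genes of SYK, TEC and SRC family kinases and PI3-kinase. The other lower probe set had no name (−0.50, SE 0.08, q = 0.0265).

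Several lower probe sets with low p-values missed the threshold. C19orf35 was at 6.05 and 6.17 with vehicle and 5.75, 5.48 and 5.35 with endotoxin (−0.52, SE 0.10, q = 0.139). KLHL12, an adaptor of a ubiquitin ligase, went from 5.44 and 5.43 to 4.90, 5.00 and 4.66 (−0.53, SE 0.11, q = 0.215), while its other probe sets differed by 0.25, 0.13 and −0.18. C19orf35, this KLHL12 probe set and those of P2RY8, METTL7A and NOX4 were without overlap, and all missed the threshold. P2RY8, a G-protein coupled receptor, differed by −0.46 (q = 0.258), METTL7A, a methyltransferase, by −0.34 (q = 0.459) and NOX4, a superoxide-forming oxidase, by −0.33 (q = 0.323). The mean level of NOX4 over all arrays was above only 9.95% of probe sets.

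Groups tied to the effector state of macrophages were not called at 2 hps. Of 35 phagocyte effector genes 0 were called, with 2 higher and 0 lower at an unadjusted p of less than 0.05. NOS2, the inducible nitric oxide synthase, was at 6.92 and 7.13 against 6.98, 7.14 and 7.15 (0.08, SE 0.12, q = 0.9997), and GCH1, which makes the cofactor of that enzyme, differed by 0.37 (SE 0.10, q = 0.728) with no overlap between groups. Of 45 genes of interferon response 0 were called, the same measure giving 2 higher and 3 lower. In it IRF8 differed by −0.32, TRIM25 by −0.34 and IRF4 by 0.31, each at q = 0.9997. Of 38 apoptosis genes 0 were called, with BIK the nearest and BCL2L14 the lowest (−0.41, q = 0.9997).

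Housekeeping groups also held 0 calls and had medians near 0. The list medians were −0.02 for 67 cytosolic ribosomal proteins, −0.03 for 119 respiratory chain and mitochondrial ribosome genes, −0.02 for 24 glycolysis genes, −0.05 for 49 lysosome and proton pump genes and −0.06 for 70 genes of cell cycle and replication. All stimulated arrays lay below both controls in 17 of 70 cell cycle genes, 34 of 119 respiratory chain and mitochondrial ribosome genes and 12 of 67 ribosomal proteins. They lay above them in 1, 5 and 2. Over all probe sets the shares were 9.2% below and 10.8% above, so that each of these 3 lists held a larger share below. Other lists of this kind did not all lean that way. Glycolysis genes lay below in 1 and above in 3 of 24, lysosome and proton pump genes in 6 and 4 of 49. Chaperones lay below in 3 and above in 3 of 36, endoplasmic reticulum genes in 7 and 1 of 44. For ubiquitin and proteasome genes it was 10 and 11 of 102. The first 3 lists are bright, with median vehicle levels of 10.2, 10.8 and 13.5. Over all probe sets the median difference was −0.018 to −0.019 in level bins 8 to 10, the brightest, and 0.0026 to 0.014 in the other bins. Whether level accounts for these shares was not tested. Among the cell cycle genes the lowest p was that of ORC1, a subunit of the origin recognition complex (−0.27, SE 0.08, q = 0.698). Over 36 chaperones, 44 genes of endoplasmic reticulum stress and folding and 102 of ubiquitin and proteasome the medians were 0.00297, −0.00206 and 0.00027. An unadjusted p under 0.05 was met by 2 cell cycle genes, 1 chaperone and 1 stress gene, all lower, by 3 ubiquitin and proteasome genes (2 higher, 1 lower) and by 0 of the ribosomal, respiratory, glycolysis and lysosome genes.

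**Figure D3:**
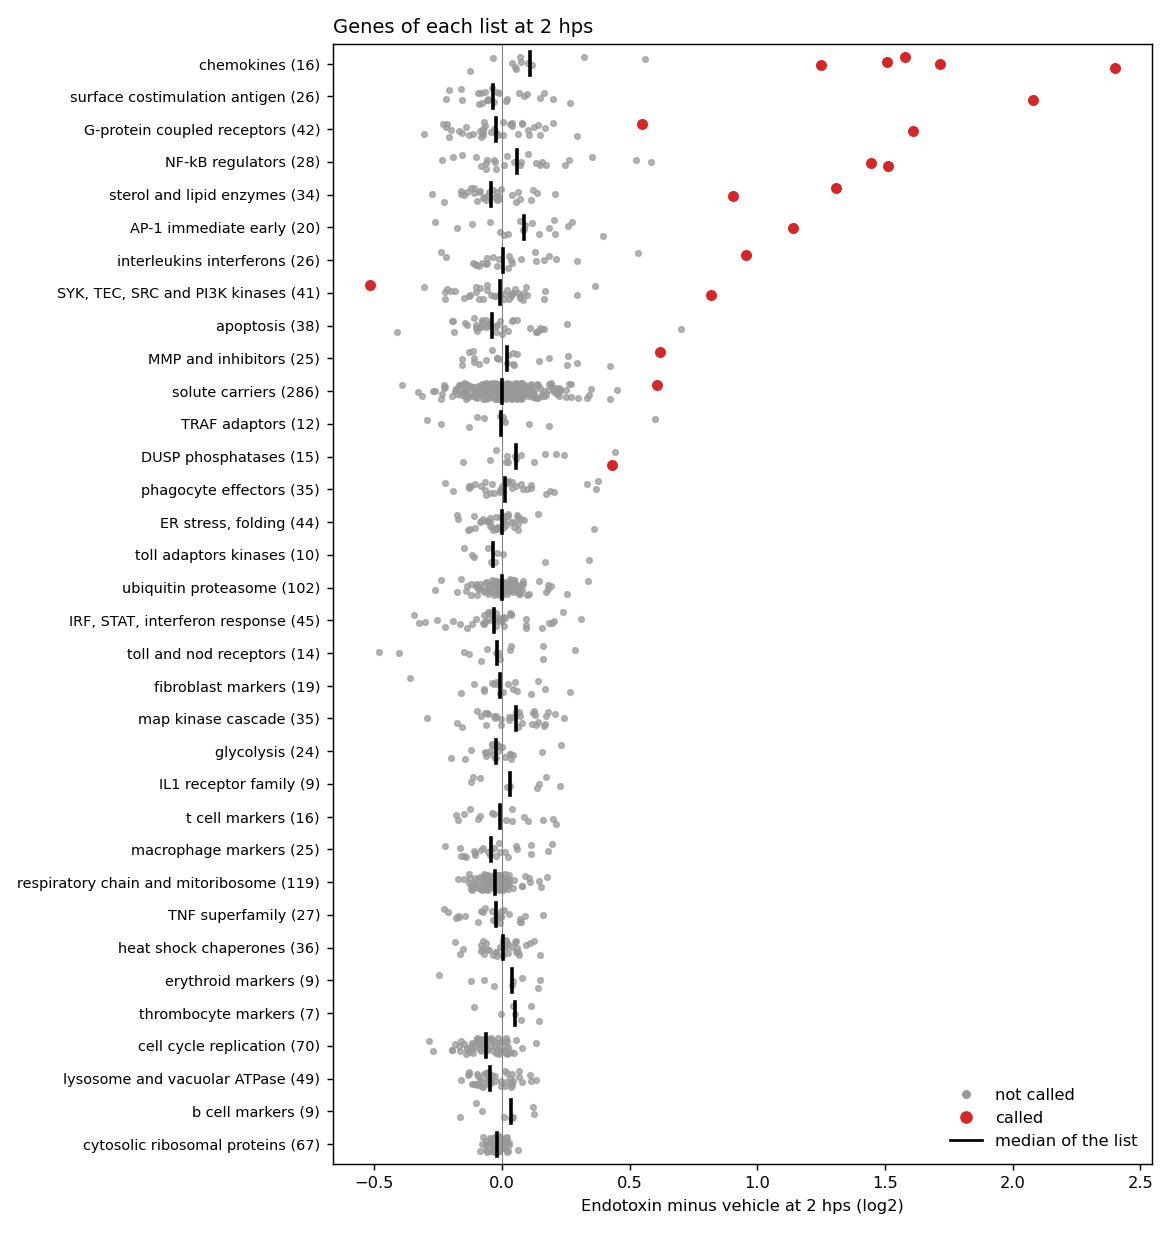
Difference at 2 hps (endotoxin minus vehicle, log2, x axis) of each gene, by its brightest probe set, in the 34 gene lists (number of genes in brackets); red points were called, grey points were not and black bars are list medians. The 5 red points of the chemokines stand to the right, the SYK, TEC, SRC and PI3-kinase list holds the only red point left of 0, and list medians lie between −0.06 and 0.11.

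The 2 hps calls were followed over the other times in the same fit, where endotoxin raised 14 probe sets (0.0364%) at 1 hps, 1902 (4.95%) at 4 hps and 57 (0.148%) at 8 hps. It lowered 0 at 1 hps, 1204 (3.13%) at 4 hps and 4 (0.0104%) at 8 hps. These comparisons use other arrays of the same replications. Of the 31 that rose at 2 hps, 10 also rose at 1 hps (32.3% of the 2 hps list and 71.4% of the 1 hps list). They were those of LOC395551, CD83, IL8L1, IL8L2, MRGPRH, TNFAIP3, NFKBIA, CH25H and IL1B and the brighter BTG2 probe set. At 4 hps 29 of the 31 were higher (93.5% and 1.52% of the 2 lists) and at 8 hps 27 were (87.1% and 47.4%). At 4 hps the vehicle-treated arrays stood apart on the first principal component (24.4 and 14.7), with actin differences of 0.35 and 0.22, and their part in the 4 hps calls was not tested here. The median difference of the 31 went from 0.44 at the first time through 0.88 and 0.86 to 0.95 at the last.

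The estimates at the 4 times are given here as a description. TNFAIP3 was at 1.40, 1.51, 0.93 and 0.90 at 1, 2, 4 and 8 hps (SE 0.08) and NFKBIA at 1.23, 1.44, 1.12 and 1.14 (SE 0.10), both highest at 2 hps. CCL4 (K203) was at 0.53, 1.58, 1.60 and 1.02 (SE 0.14), whereas LOC395551 beside it was at 2.53, 2.40, 2.36 and 2.09 (SE 0.28). CMBL (0.29, 1.29, 1.66 and 1.84, SE 0.21) and K123 (0.60, 1.25, 1.38 and 2.06, SE 0.21) had their highest values at 8 hps. SH2D6 was at −0.04, −0.52, −0.22 and −0.13 (SE 0.07) and was called at 2 hps alone. Of the 31, 12 were largest at 2 hps, and 27 were larger at 2 hps than at 1 hps. The 31 were picked by their 2 hps values, which favours that time in these counts and in the medians over times.

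**Figure D4:**
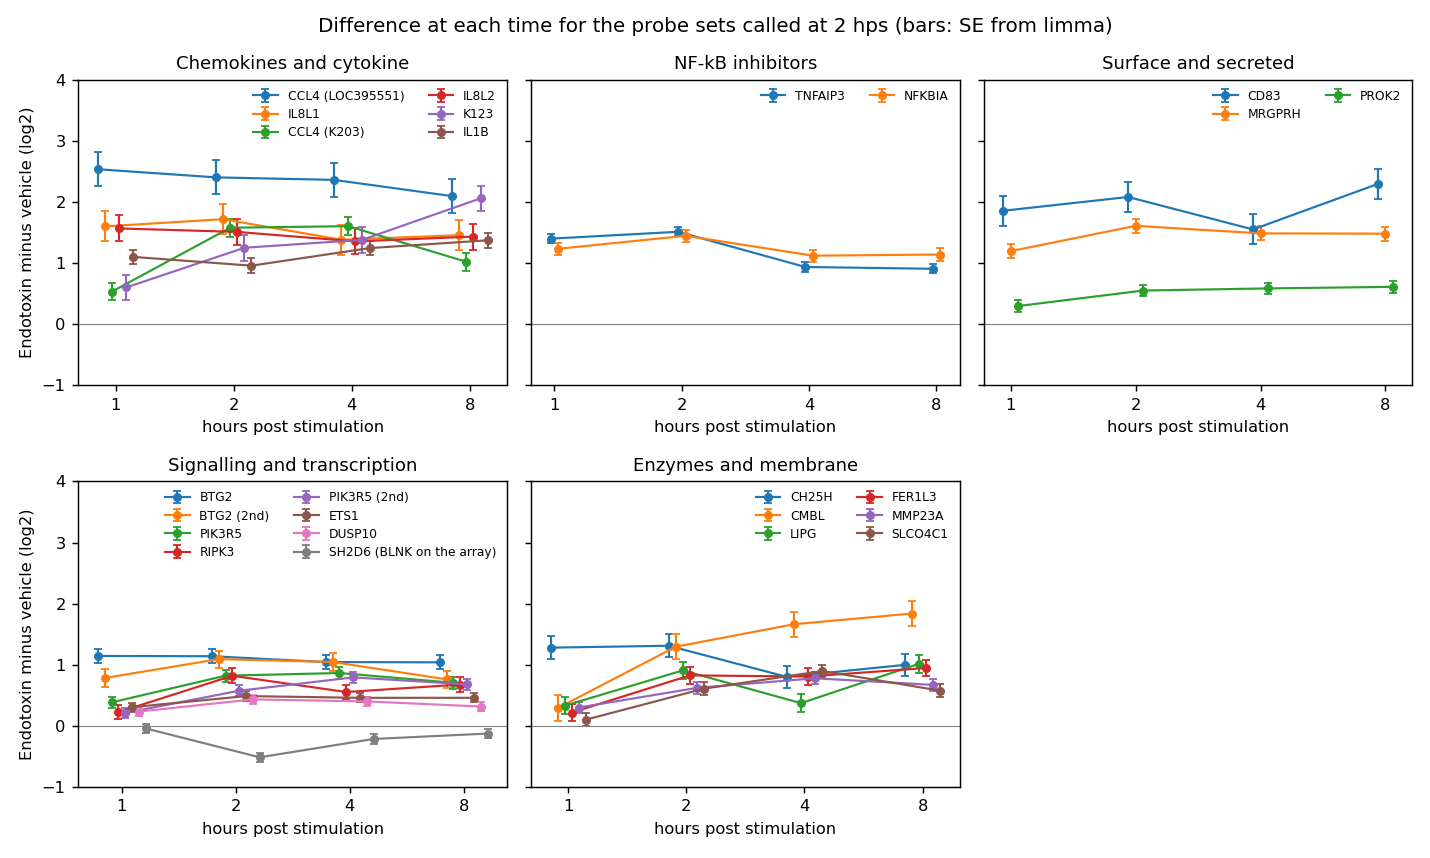
Difference between endotoxin-stimulated and vehicle-treated cells (log2, y axis) at 1, 2, 4 and 8 hps (x axis, spaced evenly) for each named probe set called at 2 hps, in panels by role; points are limma estimates and bars their SE. LOC395551 stays between 2.09 and 2.53, CCL4 (K203) goes from 0.53 to 1.58 between 1 and 2 hps, and SH2D6 lies lowest at 2 hps.

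Whether the effect itself differed between times was tested as a difference of differences. Against 1 hps, 0 probe sets were called (lowest q 0.9999, 1145 at an unadjusted p under 0.05), and against 8 hps 0 were (lowest q 0.973, 1507 at an unadjusted p under 0.05). For CCL4 (K203) the effect was larger at 2 than at 1 hps by 1.04 (SE 0.20, q = 0.9999), for CMBL by 1.01 (SE 0.29, q = 0.9999), and SH2D6 was lower by 0.47 on the log2 scale (SE 0.10, q = 0.9999), so that none of these changes of size passed the test over all probe sets. A change called at 2 hps and not at 1 hps was therefore not shown to differ between these times. Against 4 hps, 6080 probe sets had an unadjusted p under 0.05, where 1922 would be met by chance alone. Of these, 4 were called (0.0104% of all tested), none of them among the 33. The effect was lower at 2 hps for 1 probe set each of KLHL12, WDFY3 and CD274 (0.0078% for the 3), while other probe sets of these genes were not called, the brighter one of CD274 being at −0.06 (q = 0.624). It was higher for SLC24A1 (1 probe set, 0.0026%).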

How the data were processed

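RNA was hybridised by the authors to Affymetrix chicken arrays, and they deposited RMA values on the log2 scale (background correction, quantile normalization and median polish; RMA and limma are named in the submitters' processing notes, without versions). A deposited annotation table also holds the authors' ratios and q values for each time, which were not used. It supplied gene names: of 38535 probe sets, 96 controls were left out, and of the 38439 tested 25795 had 1 name, 671 several and 11973 none. Current symbols were taken from RefSeq (assembly GRCg7b) by accession for 13303 and by gene number for 1430 of these, and 4420 names differ from the annotation. Probe sets named TNIP1 and STT3A, whose accessions belong to other genes, were left out of the lists. The number of arrays limits the precision.

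A linear model with a mean for each of 8 groups (treatment by time) and replication as a fixed effect was fitted to the 20 arrays in limma 3.58.1 (R 4.3.3; 10 residual and 5.13 prior degrees of freedom), as the study's methods describe. P-values became q values by a histogram method with 20 bins, which here took all 38439 probe sets as unchanged at 2 hps and so equals the Benjamini-Hochberg adjustment. The steps were tested on simulated data. The paper's account of RNA isolation has replications on different days, and the labels give a replication number but no day. Arrays with the same number were taken as pairs. The replication 1 minus 2 differences of the 2 treatments correlated at −0.14, 0.24, 0.07 and 0.11 at 1, 2, 4 and 8 hps.

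In the 34 lists the brightest probe set of a gene, by its mean, stands for it. Genes open to naming were every called probe set with 1 symbol, the 12 lowest-p falls and the 3 lowest-p genes of each list. The called ones are all described, the others in part, and 1 is not reported here. FOS, EGR1, TLR4, TLR15, NOS2, NFKB1, REL, TNIP2, MALT1, CCL19, XCL1, IL6 and WDFY3 and the cell markers were named outside this rule for their roles, after their values were seen. Members and lists were chosen with earlier results of these data known. Alternatives covered the replication term, adjustment, variance moderation, array weights, normalization, filters, reference arrays and each array or replication left out. Of these, 3 were added after seeing the data: leaving out the vehicle-treated arrays at 4 hps, leaving out the replication 3 arrays of 1 and 2 hps, and an actin covariate.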

Additional observations from a re-analysis of the deposited data

Results flagged for a closer look

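The effect of endotoxin at 2 hps was found to differ from that at 4 hps, by limma's test of the difference over all probe sets, for 4 probe sets (q = 0.0321 each, for 3 against 2 arrays at each time). The values are log2 differences, the later effect subtracted from the earlier. For a CD274 probe set, the dimmer of those with that name, it was −0.87 (SE 0.12), from 0.19 at 2 hps to 1.06 at 4 hps, whereas the brighter CD274 probe set differed by −0.06 (q = 0.624), from 0.27 to 0.33. For KLHL12 it was −1.08 (SE 0.15), from −0.53 to 0.55, and for WDFY3, a protein of selective autophagy, −0.89 (SE 0.13), from −0.18 to 0.71. For SLC24A1, a sodium-calcium-potassium exchanger, it was 1.06 (SE 0.15), from 0.45 to −0.61. The other probe sets of KLHL12 (0.23, 0.05 and −0.33) and WDFY3 (−0.90, −0.02, 0.04 and 0.19) were not called in this test. None of the 4 was called at 2 hps itself, and all 4 were at 4 hps. None of the 4 was called without replication 1, 2 or 3, without the replication term, or with the actin covariate. Vehicle-treated arrays of 4 hps had actin differences between probe sets of the 3' and 5' ends of 0.35 and 0.22, against −0.0018 and 0.04 in those at 2 hps. Beyond the fit with the actin covariate, the part of the 4 hps vehicle-treated arrays in these values was not tested.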

How the results depend on the processing

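Every called gene kept its direction under all 21 alternatives. TNFAIP3, MRGPRH and NFKBIA kept their call in 20 of 21 (all but that without replication 2) and PROK2 in the fewest, 8. Against 31 probe sets higher and 2 lower, the counts were 10 and 1 with no replicate block, 16 and 1 with replication as a random block, 12 and 0 in the 5 arrays of 2 hps alone, 88 and 116 with controls of 1, 2 and 8 hps as a common reference (30 of the 31 shared), and 17 and 0 without the replication 3 endotoxin arrays of 1 and 2 hps. Ribosomal protein centring left 1 lower. Leaving out single arrays or replications gave 0 to 20 higher and 0 to 2 lower. The 4 effects that differed from 4 hps became 443 with limma's trend and robust options, 622 among the brighter probe sets tested alone, 1 with the actin covariate, 0 with no replicate block and 0 to 0 without each replication. The trend and robust options gave 1 effect differing from 8 hps. A lone vehicle-treated array was taken to vary like the other groups. The cause of these changes was not tested.

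Among the genes open to naming, the sign changed only in these uncalled ones. With the reference of 1, 2 and 8 hps the differences were 0.0606 for ATP6V1B2, −0.0380 for IL1R1, −0.142 for IL1RAP, 0.00870 for IRF8, 0.0428 for MRPL42, −0.183 for PELI2 and −0.374 for PFKFB3. Leaving out single arrays or replications gave −0.00597 to 0.189 for CD72, −0.0838 to 0.332 for CXCR5 (−0.0512 without replication 2) and −0.0142 to 0.325 for HBA1.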
